A study of Rattus norvegicus with 3 samples.

Results

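Closely paired H3K4me3 peaks are neighbouring peaks of the H3K4me3 list on 1 chromosome that are separated by a gap of 200 to 2000 bp. They were chosen by the measured positions of the peaks alone, and the unit described is the pair. Of 25073 pairs of neighbours in the list, 2070 (8.26%, 95% Wilson interval 7.92 to 8.60%) met this rule, and they held 3902 of the 25094 H3K4me3 peaks (15.5%). The other 21192 peaks belonged to no pair and served as the comparison.

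The peaks come from chromatin immunoprecipitation sequencing (ChIP-seq) of enamel organs taken from the ever-growing lower incisors of adult wildtype rats. The series has 1 library each for DLX3, for H3K4me3 and for an input without antibody, all of the same genotype, tissue and stage. No file of the input was used here. The antibody field of the labels reads anti-DLX4 and anti-H3K4me4, whereas the titles name DLX3 and H3K4me3, and the titles were followed. No source used here says how many animals were pooled. With 1 library per antibody no value has a replicate and no test over samples was possible. The Wilson intervals cover counting error over regions only, neighbouring peaks are not independent, and the depth of the libraries is unknown.

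H3K4me3, the trimethylation of lysine 4 on histone H3, is laid down at the start sites of active genes and sits on the nucleosomes that flank the start. The start itself is usually poor in nucleosomes, so the mark of 1 promoter can appear as a pair of shoulders around a dip, and promoters of neighbouring or divergently transcribed genes can also lie side by side. DLX3 is a homeodomain transcription factor of ectodermal organs, and changes in the human gene cause tricho-dento-osseous syndrome, in which enamel is thin or soft. The enamel organ is the epithelium that contains the ameloblasts, which secrete the enamel matrix, and their supporting layers. The lists are in the rat build rn5, for which no annotation or sequence was in hand, so regions are named by position, marker genes of the tissue could not be looked up and no sequences are shown.

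Short gaps were the most frequent. There were 298 pairs with a gap from 200 to under 300 bp, 193 from 300 to under 400 bp, and between 76 and 165 in each further 100 bp up to 2000 bp. The median gap was 820 bp (quartiles 415 and 1369.5 bp), and the median pair spanned 4835 bp from outer edge to outer edge. A further 939 neighbours lay less than 200 bp apart and were not counted as pairs. The 194 neighbours up to 50 bp short of the lower limit had median scores of 1599 and 96.3 for the stronger and the weaker peak, and the 169 pairs less than 50 bp above it had 1435 and 94.1. The 77 pairs up to 100 bp short of the upper limit had 953 and 89.3, and the 77 neighbours up to 100 bp beyond it 1282 and 108.

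**Figure D1:**
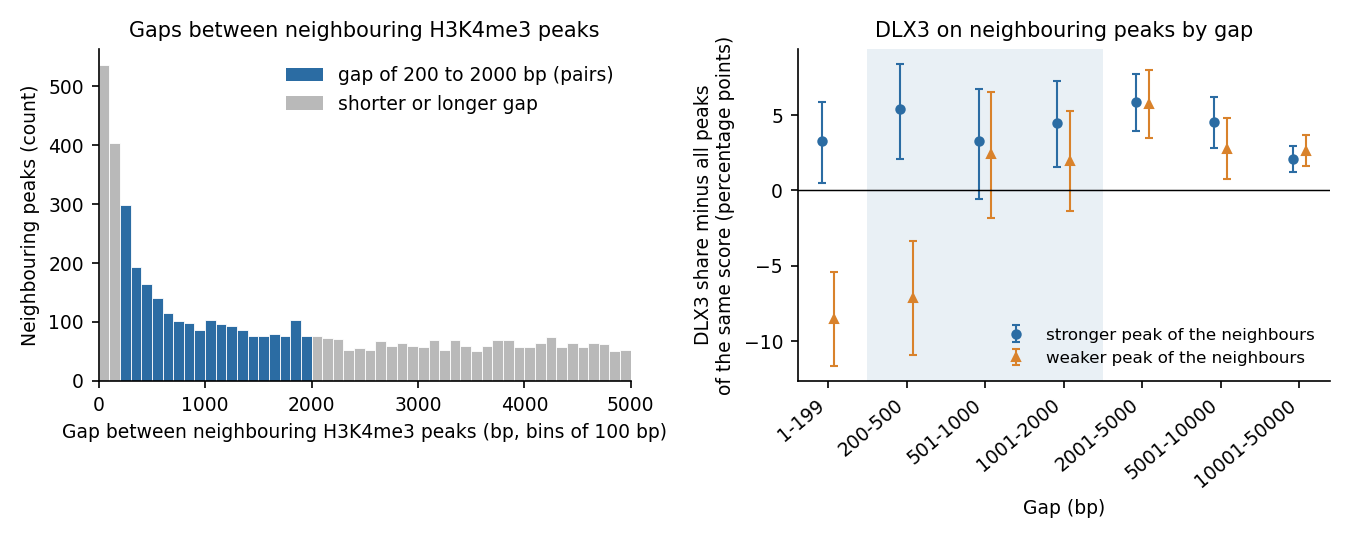
Left, number of neighbouring H3K4me3 peaks by the gap between them in bins of 100 bp, with the 2070 pairs in blue; short gaps are the most frequent. Right, percentage of neighbouring peaks with DLX3 minus that of all H3K4me3 peaks of the same score decile, for the stronger (circles) and the weaker (triangles) peak, with 95% Wilson intervals of the observed percentage and the range of pairs shaded; the difference of the weaker peak is -7.17 points at 200 to 500 bp and 1.95 points above 1000 bp.

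The peaks of a pair usually differed widely in score. The score is the authors' peak score, used here to rank peaks within the list. The stronger peaks had a median score of 1264 (quartiles 285 and 2610) and the weaker ones 98.9 (quartiles 64.7 and 264), against 495 (quartiles 96.5 and 1935) for unpaired peaks. As ranks within the list, the stronger peak stood at a median percentile of 64.9 and the weaker at 26.2. In 1056 pairs (51.0%, Wilson interval 48.9 to 53.2%) 1 peak was in the upper and the other in the lower 50% of the list. The median difference within a pair was 28.6 percentile points (quartiles 11.9 and 51.6). In 1151 pairs (55.6%) the difference was above 25 points and in 552 (26.7%) above 50 points. In the list, 2454 peaks scored exactly 3100 and 276 scored above it. No label or header says what sets 3100 apart, and the order of peaks at and above it is taken as deposited. Equal scores occurred in 8 pairs, each with 3100 on both peaks, and there the peak at the lower coordinate was entered as the stronger. In 407 pairs the stronger peak scored 3100 or more, and in 9 the weaker did too. The scores of the 2 peaks, in order along the chromosome, were hardly related (Spearman rho -0.083 over 2070 pairs from the same library). Sorting 2 peaks into a stronger and a weaker one creates a difference by itself. For neighbours over 2000 and up to 5000 bp apart the median difference was 25.4 points, and for those over 50000 bp apart it was 27.0 points, against the 28.6 points of the pairs. Neighbours under 200 bp apart differed more, by 36.7 points, with a rho of -0.274.

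The stronger peak was usually the wider one. The median width was 2306 bp for the stronger peaks (quartiles at 1534.5 and 3454.5), 1407 bp for the weaker (quartiles at 973 and 1980.5) and 1757 bp for unpaired peaks. These medians were not matched for score. Within every score decile the weaker peaks, like the stronger, had a larger median width than unpaired peaks. For the weaker peaks it was 1018 against 939 bp in the lowest decile and 1544 against 1363 bp in the fourth. The stronger peak was also wider in 1631 pairs (78.8%, Wilson interval 77.0 to 80.5%). Width rose with score among unpaired peaks too, from a median of 939 bp in the lowest score decile to 2998 bp in the highest. No such share was computed for neighbours beyond the limits of a pair, so it is not shown to be particular to pairs. The wider peak was at least 2 times as wide as the narrower in 852 pairs (41.2%) and at least 5 times as wide in 94 (4.54%). The stronger peak lay at the lower coordinate in 1016 of the 2062 pairs with unequal scores (49.3%, 47.1 to 51.4%). Widths of the 2 peaks showed a rho of 0.175 in order along the chromosome.

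**Figure D2:**
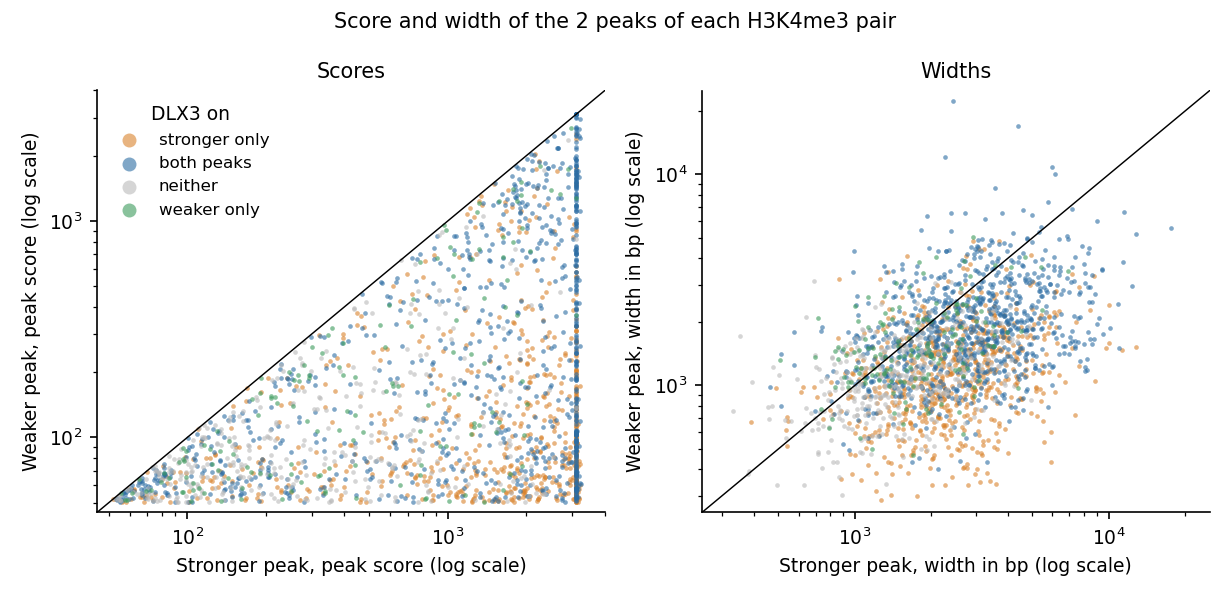
Each point is 1 of the 2070 pairs except 1 with equal scores and DLX3 on 1 peak, with the stronger peak on the horizontal and the weaker on the vertical axis, as score (left) and width in bp (right), all axes logarithmic and the line marking equality. Colours give the place of DLX3; points gather at low weaker scores over the whole range of stronger scores, and at a stronger score of 3100.

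The DLX3 list held 69263 peaks. DLX3 was found on at least 1 H3K4me3 peak in 1728 of the 2070 pairs (83.5%, Wilson interval 81.8 to 85.0%). Both peaks overlapped a DLX3 peak by at least 1 bp in 877 pairs (42.4%, 40.3 to 44.5%). The stronger peak alone carried DLX3 in 696 pairs (33.6%, 31.6 to 35.7%) and the weaker alone in 154 (7.44%, 6.39 to 8.65%). Neither peak did in 342 pairs (16.5%, 15.0 to 18.2%), and in 1 pair of equal scores DLX3 lay on 1 of the 2. Among the 850 pairs with DLX3 on 1 peak of unequal score, it was the stronger peak in 81.9% (79.2 to 84.3%). Over the whole list 63.9% of H3K4me3 peaks had DLX3, a share of single peaks and not of pairs. The share was 63.0% (61.5 to 64.5%) of the paired peaks, an interval that includes this background, and 64.0% of unpaired peaks.

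DLX3 on the members differed more with their score than with pairing. DLX3 lay on 1574 of the stronger peaks (76.0%, Wilson interval 74.2 to 77.8%), where unpaired peaks of the same score deciles gave 71.0%, a difference of 5.03 points (3.15 to 6.82 from the interval of the observed share). It lay on 1031 of the weaker peaks (49.8%, 47.7 to 52.0%), where unpaired peaks of the same score gave 50.6%, a difference of -0.78 points (-2.93 to 1.38). A peak in 2 pairs enters once for each. Part of the result turned on which unpaired peaks were compared. Another comparison, chosen after seeing the data, took unpaired peaks that had a neighbour over 2000 and up to 10000 bp away. The stronger peaks then differed by 1.45 points (-0.43 to 3.24) and the weaker peaks by -6.27 points (-8.43 to -4.12). Against unpaired peaks of the same score decile and the same of 4 width classes, the differences were 3.43 (1.55 to 5.22) and -3.49 points (-5.65 to -1.34). The size of each difference thus depended on the unpaired peaks compared, and 2 of these 6 intervals included 0.

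Single deciles differed in how the members stood to unpaired peaks. In the lowest decile (scores of 50.01 to 60.5) DLX3 lay on 154 of 409 weaker peaks (37.7%, 33.1 to 42.4%), against 943 of 2089 unpaired peaks (45.1%, 43.0 to 47.3%). The 36 stronger peaks in that decile, whose partners were weaker still, had 63.9% (47.6 to 77.5%). In the second decile 61.6% of 73 stronger peaks (50.2 to 71.9%) and 47.1% of unpaired peaks had DLX3. In the third and the eighth, stronger peaks (47.2% and 83.6%) were close to unpaired ones (48.1% and 84.1%). In the sixth decile (451 to 956) paired peaks were higher than unpaired ones. There 71.9% of 171 weaker peaks (64.8 to 78.1%) and 65.9% of 261 stronger peaks (60.0 to 71.4%) had DLX3, and 55.3% of unpaired peaks (53.1 to 57.4%). In the seventh decile both kinds of paired peak stood near 80.2%, against 72.5% (70.6 to 74.4%) of unpaired peaks. In the highest decile, 403 of 407 stronger peaks (99.0%) and 97.2% of unpaired peaks had DLX3, which leaves little room for a difference.

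**Figure D3:**
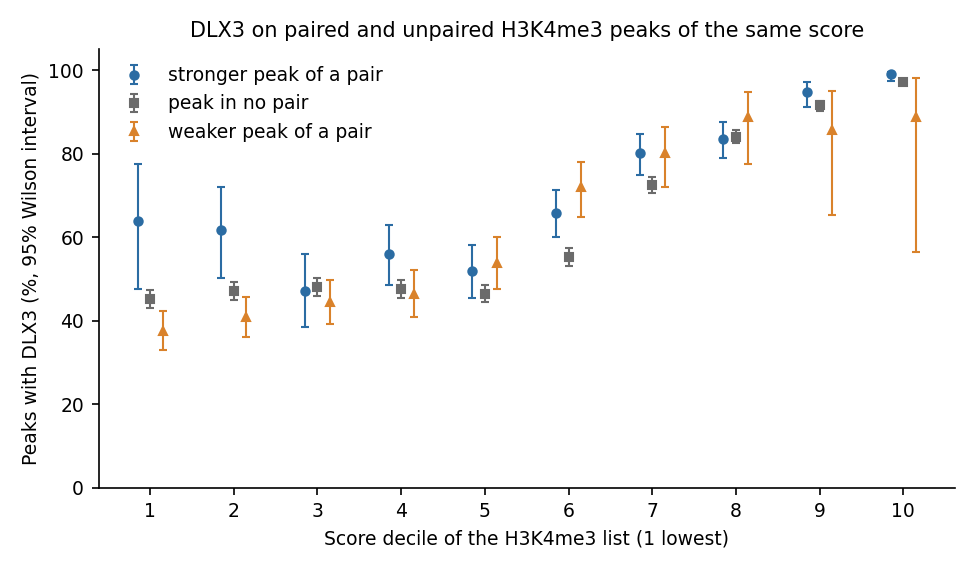
Percentage of H3K4me3 peaks overlapped by DLX3 in each score decile of the list, for the stronger (circles) and weaker (triangles) peaks of pairs and for peaks in no pair (squares), with 95% Wilson intervals. Weaker peaks lie below unpaired ones in the lowest decile (37.7% against 45.1%) and above them in the sixth (71.9% against 55.3%).

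The place of DLX3 varied with the scores of both partners. In 370 pairs both peaks were in the upper 50% of the list by score, and DLX3 lay on both in 70.5% (65.7 to 75%), on the stronger only in 17.3%, on the weaker only in 7.57% and on neither in 4.32%. In these pairs the weaker peak had DLX3 in 78.1% (73.6 to 82.0%), against 67.9% of unpaired peaks of the same score. In 1056 pairs only the stronger peak was in the upper 50%. DLX3 then lay on both in 37.8% and on the stronger only in 47.5% (44.5 to 50.6%), and the weaker peak had it in 42.0% (39.1 to 45%), against 46.9% of unpaired peaks of the same score. In the 644 pairs with both peaks in the lower 50%, DLX3 lay on both in 33.7%, on the stronger only in 20.2%, on the weaker only in 12.6% and on neither in 33.5% (30.0 to 37.3%). Where the ranks of the 2 peaks were within 10 percentile points, DLX3 on the stronger only (16.7%) and on the weaker only (14.3%) were about as frequent, with overlapping intervals. Where they differed by more than 50 points, these shares were 55.3% and 1.45%.

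**Figure D4:**
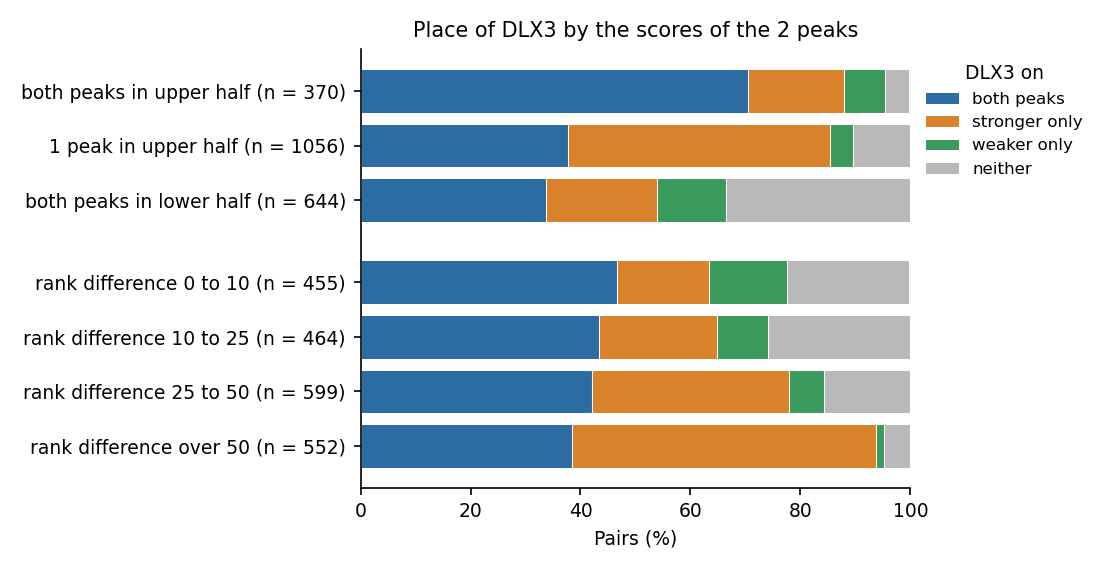
Percentage of pairs with DLX3 on both peaks, the stronger only, the weaker only or neither, by whether the peaks lie in the upper or lower 50% of the list by score (top 3 bars) and by the difference of their ranks in percentile points (lower 4 bars), with the number of pairs beside each bar. The share with DLX3 on the stronger peak only is 16.7% at differences up to 10 points and 55.3% above 50 points.

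The 2 peaks of a pair tended to be alike in DLX3 beyond what their scores gave. The weaker peak had DLX3 in 55.7% (53.3 to 58.2%) of pairs whose stronger peak had it, and in 31.0% (27.1 to 35.3%) of pairs whose stronger peak lacked it. Unpaired peaks with the scores of these weaker peaks gave 51.3% and 48.3%. If each peak had carried DLX3 as often as unpaired peaks of its score, independently of its partner, DLX3 would have been on both in 36.6% of pairs, on the stronger only in 34.4%, on the weaker only in 13.97% and on neither in 15.0%. Observed pairs were more often at both (42.4%) and less often at the weaker only (7.44%), and the Wilson intervals of both exclude the values from score. A DLX3 peak that touches both members makes them alike by construction, and without the 62 such pairs, left out after seeing the data, DLX3 was on both in 40.6% (38.5 to 42.8%). Such likeness was not limited to close pairs. With the share of all H3K4me3 peaks in each decile as the reference, DLX3 on exactly 1 of 2 neighbours was found in 41.1% of pairs against 48.2% from the scores. The same values were 46.3% and 49.7% at gaps under 200 bp, 36.7% and 47.2% over 2000 and up to 5000 bp, 39.2% and 45.9% over 5000 and up to 10000 bp, 38.7% and 44.9% over 10000 and up to 50000 bp, and 45.1% and 45.5% beyond 50000 bp. The 2 values lay closest together at the longest gaps and next closest at the shortest. DLX3 on both neighbours, not matched for score, was less frequent in pairs (42.4%) than at most longer gaps. It was 49.2% over 2000 and up to 5000 bp, 47.4% up to 10000 bp and 48.0% up to 50000 bp. It was 37.2% beyond 50000 bp and 35.4% under 200 bp.

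The length of the gap went with DLX3 on the weaker peak. At gaps of 200 to 500 bp (658 pairs) the weaker peak had DLX3 in 43.2% (39.4 to 47.0%). Over 500 and up to 1000 bp (542 pairs) it was 53.1% (48.9 to 57.3%), and over 1000 bp (870 pairs) 52.8% (49.4 to 56.1%). Median scores of the weaker peaks in these classes were 100.4, 98.9 and 96.7, and unpaired peaks of the same score gave 50.3%, 50.7% and 50.8%. The weaker peak of the closest class differed by -7.09 points from its unpaired counterparts (-10.8 to -3.28), and in the other 2 classes the interval of the difference included 0. The stronger peaks were at 78.1%, 74.9% and 75.2%, each 3.83 to 5.95 points above unpaired peaks of the same score. DLX3 on the weaker peak only made up 3.8% of the closest pairs (2.59 to 5.55%) and 10.7% (8.37 to 13.6%) and 8.16% (6.52 to 10.2%) of the others.

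Neighbours outside the limits of a pair showed no steady order with distance. Set against all H3K4me3 peaks of the same score, the weaker of 2 neighbours differed by -8.56 points (-11.6 to -5.39) at gaps under 200 bp, by 5.74 points (3.48 to 7.97) over 2000 and up to 5000 bp, and by 2.77 points (0.74 to 4.78) over 5000 and up to 10000 bp. Over 10000 and up to 50000 bp it differed by 2.64 points (1.61 to 3.67). On the same reference the pairs differed by -7.17, 2.39 and 1.95 points in order of their gap. Weaker peaks at short gaps were also narrower, with medians of 1295 bp under 200 bp, 1248.5 bp at 200 to 500 bp and 1503.5 bp over 1000 and up to 2000 bp. With width matched as well as score, the weaker peak differed from all peaks by -7.12 points (-10.9 to -3.30) at 200 to 500 bp. The difference was -0.34 points (-4.55 to 3.82) in the next class and -1.81 points (-5.14 to 1.48) over 1000 and up to 2000 bp.

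Where DLX3 lay on both peaks, it was mostly as separate DLX3 peaks. Only 62 pairs (3.00%, 2.34 to 3.82%), or 7.07% of those with DLX3 on both, had a DLX3 peak that touched both H3K4me3 peaks. These 62 pairs had median H3K4me3 scores of 248 and 68.7, below the 1264 and 98.9 of all pairs, and median widths of 2964.5 and 1727.5 bp, above the 2306 and 1407 bp of all pairs. In the other 815 pairs with DLX3 on both, the highest DLX3 score was greater on the stronger H3K4me3 peak in 524 (64.3%, 60.9 to 67.5%) and on the weaker in 291. The median DLX3 score was 194 (quartiles 106 and 383) on the stronger and 134 (quartiles 82.9 and 235) on the weaker peak. It was 155 where the stronger peak alone had DLX3, 102 where the weaker alone had it and 149 on unpaired peaks with DLX3. Each value is the highest DLX3 score on an H3K4me3 peak, and none was matched for H3K4me3 score. Among unpaired peaks the median was 136 in the lowest score decile, 107 in the sixth and 257 in the highest. Of the peaks with any DLX3, 83.2% of the stronger, 89.8% of the weaker and 91.2% of the unpaired peaks held exactly 1 DLX3 peak. These shares were not matched for score or width, and the stronger peaks were wider than unpaired ones (medians of 2306 and 1757 bp).

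Whether gaps held more or less DLX3 than the outer sides of the pairs depended on the measure and on the pairs compared. In 1453 pairs with no further H3K4me3 peak within 2000 bp, a set chosen after seeing the data, a DLX3 peak touched the gap in 23.3% (21.2 to 25.5%). A window of the same length on the outer side of the stronger peak was touched in 18.0% (16.1 to 20%), and one on the outer side of the weaker peak in 21.3% (19.3 to 23.5%). The order changed with gap length. At 200 to 500 bp the gap was touched in 14.4% and the windows in 16.1% and 17.6%, with overlapping intervals. Over 500 and up to 1000 bp the values were 22.3%, 16.7% and 18.5%, and over 1000 bp 30.8%, 20.2% and 26.1%. A gap has a peak on either side from which a DLX3 peak can reach in, and an outer window has 1. DLX3 peaks covered 8.70% of the bases of the gaps, 8.10% of the stronger and 9.87% of the weaker outer windows. The centre of a DLX3 peak lay in 40 gaps (2.75%), in 51 stronger-side windows (3.51%) and in 59 weaker-side windows (4.06%), with overlapping intervals. Over all 2070 pairs, where outer windows can hold another H3K4me3 peak, the gap was touched in 24.6% and the windows in 23.6% and 25.5%. DLX3 then covered 9.50% of the bases of the gaps, 12.4% of the stronger-side and 13.6% of the weaker-side windows. A DLX3 centre lay in 3.04% of gaps (2.39 to 3.87%), 5.17% of stronger-side windows (4.30 to 6.21%) and 5.56% of weaker-side windows (4.65 to 6.63%). In the 1447 pairs of unequal score with no further H3K4me3 peak within 2000 bp, the side of the peak's middle that faced the partner held 51.2% (48.4 to 54.0%) of 1229 centres in stronger peaks and 49.6% (46.0 to 53.3%) of 709 in weaker peaks.

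**Figure D5:**
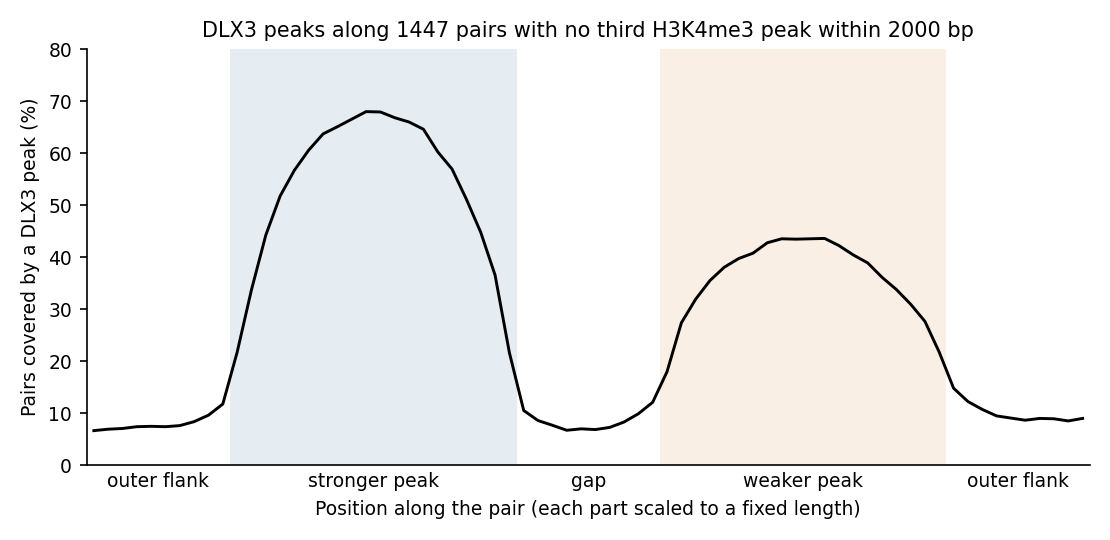
Percentage of 1447 pairs of unequal score with no further H3K4me3 peak within 2000 bp in which a DLX3 peak covers each position, from the outer flank of the stronger peak (left) to that of the weaker (right). Flanks have the length of the gap and each part is scaled to a fixed length; DLX3 covers the middle of the stronger peak in 68.0% of pairs, the middle of the weaker in 43.5% and the middle of the gap in 6.98%.

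Some pairs were parts of longer rows. The 2070 pairs formed 1638 separate pairs, 159 rows of 3 peaks, 29 of 4, 3 of 5 and 3 of 6. The first row of 6 in chromosome order lay on chromosome 9 (63429959 to 63451363) and had scores of 221, 99.2, 579, 3100, 3105 and 186 along the chromosome. DLX3 lay on each of these peaks except the second, with highest scores of 79.3, 122, 1059, 412 and 124. The others, on chromosome 10 (86624091 to 86650814) and chromosome 19 (36268522 to 36291642), each had DLX3 on 5 of their 6 peaks as well. Over all rows, 147 of the 238 peaks that belonged to 2 pairs had DLX3 (61.8%, 55.5 to 67.7%). The interval includes the 63.9% of the whole H3K4me3 list.

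In 9 pairs both peaks scored 3100 or more, 8 of them tied at 3100. DLX3 lay on both peaks in 8 of the 9, and on 1 peak of a tied pair in the other. Scores of 3100 or more make up the highest decile, where 97.2% of unpaired peaks had DLX3. The 5 pairs named here were tied and had DLX3 on both. On chromosome 1, a peak of 9427 bp (86590458 to 86599884) lay 512 bp from one of 3517 bp (86600397 to 86603913), and their DLX3 scores were 3100 and 220. On chromosome 3 (13978600 to 13982189 and 13983323 to 13985833) the DLX3 scores were 95.8 and 327. Chromosome 7 held a pair (3140121 to 3143771 and 3144529 to 3146879) with highest DLX3 scores of 186.5 and 213. A second one (137308258 to 137312106 and 137312335 to 137314039), with a gap of 228 bp, had 449 and 314. On chromosome 8 (47418263 to 47421837 and 47423397 to 47432041) they were 312 and 156, and 3 DLX3 peaks lay on the second, which was 8645 bp wide. In 2 of these 5 pairs the wider H3K4me3 peak had the higher DLX3 score.

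In the 5 pairs of largest score difference DLX3 lay on the strong peak each time, and on the weak one in 2. Their strong peaks all scored above 3100, in the highest score decile, where 97.2% of unpaired peaks had DLX3. On chromosome 19 a peak with a score of 3233 (69518319 to 69523042) stood 1267 bp from one of 61.2 (69524310 to 69525247), and both had DLX3, with scores of 359 and 57.7. On chromosome 3 the weak peak (12454839 to 12457773, score 61.5) had a DLX3 score of 274 and its partner (12459376 to 12462849, score 3218) 376. DLX3 lay only on the strong peak in the other 3 named pairs. They were on chromosome 13 (strong peak 105673058 to 105674942, DLX3 score 309), chromosome 4 (195953773 to 195957472, DLX3 score 544) and chromosome 18 (32270951 to 32275308, DLX3 score 283). Their weak partners scored 60.3, 52.1 and 52.3.

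The 5 pairs of most unequal width had DLX3 on the wide and strong peak only. The ratio was greatest on chromosome 16, at 13.6, between a peak of 435 bp (50216164 to 50216598, score 70.8) and one of 5931 bp (50216814 to 50222744, score 3100), whose highest DLX3 score was 820. The next 4 ratios were 10.5 on chromosome 18 (wide peak 64601382 to 64604968), 10.3 on chromosome 8 (99462122 to 99467698), 10.2 on chromosome 10 (50165176 to 50172557) and 9.89 on chromosome 19 (58997114 to 59003036). Each of these 5 pairs had a further H3K4me3 peak within 2000 bp.

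Of the 370 pairs with both peaks in the upper 50%, 28 had DLX3 on the weaker peak only. The pair of highest summed score, on chromosome 6, had 2966 on a peak of 5459 bp without DLX3 (146242692 to 146248150) and 2675 on a peak of 2278 bp (146249082 to 146251359) with a DLX3 score of 79.3. On chromosome 12 (50035927 to 50038448 without DLX3, 50039242 to 50041435 with it) the H3K4me3 scores were 2881 and 1728, and the DLX3 score was 109. On chromosome 1 (102764690 to 102771584, score 3100) a peak of 6895 bp lacked DLX3, while its partner (102760288 to 102763763, score 1275) had a highest DLX3 score of 65.3. The median DLX3 score over all 154 pairs with DLX3 on the weaker peak only was 102, which lies within the range of these 3.

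In 16 of those 370 pairs neither peak had DLX3. The strongest such pair was on chromosome 12 (47013099 to 47016196, score 2366, and 47017969 to 47020361, score 2890), 24481 bp from the nearest DLX3 peak. Those on chromosome 3 (155160689 to 155162282 and 155164171 to 155168318, scores 1726 and 2337) and chromosome 11 (85555918 to 85558452 and 85558654 to 85559728, scores 3100 and 826) lay 2700 and 8195 bp from the nearest. Over all 342 pairs without DLX3 on either peak, the median distance to the nearest DLX3 peak was 7151 bp (quartiles 2257.5 and 23905 bp), and 206 (60.2%, 55.0 to 65.3%) had one within 10 kb. In 4 of them DLX3 lay in the gap itself. The median was 12154 bp for unpaired peaks without DLX3, of which 44.8% had one within 10 kb. The distance of a pair was taken from its whole span, gap included, which shortens it beside that of a single peak. The pairs and the unpaired peaks were also not matched for score here.

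Among the DLX3 peaks that touched both H3K4me3 peaks of a pair, the highest score, 1739, belonged to a DLX3 peak of 4361 bp on chromosome 1 (228081583 to 228085943) that touched peaks with scores of 77.8 and 531 across a gap of 248 bp. On chromosome 16 a DLX3 peak of 12104 bp (70957943 to 70970046, score 1108) touched peaks with scores of 162 and 130 across 1941 bp. On chromosome 20 one of 4843 bp (10029588 to 10034430, score 831) touched peaks of 55.2 and 83.3.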

How the data were processed

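The submitters' processing notes name Bowtie 1.1.2, MACS 1.4.2, HOMER and the build rn5. Their roles, cutoffs and the use of the input are not given in the sources used here. The deposited lists hold each peak's start, end and the authors' score, 1 list per library. MACS usually derives such a score from the p-value, but no header says so. Starts are printed counted from 1. Gaps run from an end to the next start. The values were computed in Python 3.11.15 (pandas 2.3.3, numpy 2.4.6; figures in matplotlib 3.10.9), and the counting was checked on simulated lists. DLX3 was counted at 1 bp of overlap. Comparisons at the same score took the share with DLX3 among unpaired peaks in each of 10 score classes, weighted by the members' number in it; intervals are 95% Wilson. Depth is unknown. Named pairs followed a rule: the highest weaker score, the largest differences in score and width, the strongest pairs with DLX3 on the weaker peak only or on neither, the highest bridging DLX3 scores and the longest row, ties by position. Members and rules were chosen with earlier results of these data known.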

Additional observations from a re-analysis of the deposited data

How the results depend on the processing

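The difference of the stronger peaks from unpaired peaks was positive in each alternative in which it was computed. It was lowest, at 1.45 points (-0.43 to 3.24, which includes 0), against unpaired peaks with a neighbour over 2000 and up to 10000 bp away. The highest value was 6.55 points, at gaps of 200 to 5000 bp. It was not computed at gaps of 0 to 2000 bp, with H3K4me3 scores of at least 100, or with 50% of the DLX3 peak inside. Nor was it computed without scores of 3100 or more, without bridging DLX3 peaks, or with no further peak within 2000 bp. The difference of the weaker peaks, -0.78 in the report, changed sign among the same alternatives. It was -6.27 against unpaired peaks with a neighbour over 2000 and up to 10000 bp away, -3.49 with score decile and width class, -3.01 at a gap of 200 to 1000 bp and 3.44 at 200 to 5000 bp. Gaps of 200 to 1000 bp gave 1200 pairs and 35.9% with DLX3 on the stronger only. Gaps of 0 to 2000 bp gave 40.2% on both and 36.0% on the stronger only. Gaps of 200 to 5000 bp gave 3925 pairs, 45.6% and 31.1%. With H3K4me3 scores of at least 100, paired anew, there were 1050 pairs, with 51.3% on both, 27.8% on the stronger, 8.86% on the weaker and 11.9% on neither. The upper 50% of DLX3 peaks gave 25.5% on both and 32.3% on neither, fewer DLX3 peaks by construction. A DLX3 centre inside gave 37.97% on both and 36.2% on the stronger, and 50% of the DLX3 peak inside gave 37.2%, 36.5% and 18.5% on neither. Without scores of 3100 or more the shares were 38.2% on both, 9.14% on the weaker and 20.4% on neither, the rank difference was 23.7 points and the stronger peak was wider in 75.9%. The gap minus the mean of its outer windows was 0.048 points over all pairs, -2.32 by DLX3 centres and 3.61 with no further peak within 2000 bp. The comparison with peaks that have such a neighbour, the pairs with no further peak and those without a bridging DLX3 peak were chosen after seeing the data. The cause of these movements was not tested. No paired analysis was possible because each antibody has 1 library, and none could be left out in turn. A peak absent from a list may have been missed at this unknown depth.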

Other observations

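DLX3 peaks away from the mark were also counted near the pairs. Of the stronger peaks, 48.6% (Wilson interval 46.4 to 50.7%) had a DLX3 peak centre within 10 kb among DLX3 peaks that touched no H3K4me3 peak, against 41.1% of unpaired peaks of the same score. For the weaker peaks the shares were 47.1% (44.96 to 49.3%) and 45.3%. By the place of DLX3 on the pair, the share for the stronger peak was 60.0% where both peaks had DLX3, 42.1% where the stronger only had it, 48.1% where the weaker only had it, and 32.7% where neither did.

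Pairs were a smaller share of neighbours on chromosomes 18 (33 pairs, 4.85%) and X (34 pairs, 5.53%) than on the others, which ranged from 6.06% on chromosome 11 to 9.91% on chromosome 9. The intervals of X (3.98 to 7.63%) and chromosome 11 (4.45 to 8.21%) overlapped. DLX3 lay on both peaks in 23.5% of the pairs on X (Wilson interval 12.4 to 40%) and in 26.3% on chromosome 11 (38 pairs, 15.0 to 42.0%). It did in 27.4% on chromosome 2 (106 pairs, 19.8 to 36.5%) and 31.3% on chromosome 4 (99 pairs, 23.0 to 41.0%). These shares were not matched for score. The highest share was 54.2% on chromosome 16 (59 pairs, 41.7 to 66.3%). Of the 238 peaks that belonged to 2 pairs, 82 were the stronger peak of both, 69 the weaker of both and 87 the stronger of 1.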
